A study of Saccharomyces cerevisiae with 4 samples.

Results

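FLO1, FLO5, FLO9 and FLO10, the flocculin genes of budding yeast, were taken as all features whose platform annotation carried 1 of these symbols. Each gene had 2 features in adjacent rows of the deposited table, which gave 8 of 896 features, and 4 of the 353 genes that the annotation named. The series was a set of 4 self-self hybridisations of a 2-colour cell wall array, each with total RNA of untreated Saccharomyces cerevisiae BY4741 in both the Cy3 and the Cy5 channel. The cells grew at 24 °C in the rich medium YEPD, were diluted to an optical density of 0.2 and were collected after 6 h more. There was thus 1 group of 4 arrays and no treated group. The labels do not say whether the 4 arrays came from separate cultures, so the spread between them may be technical.

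Flocculins are large GPI-anchored proteins at the outer face of the cell wall. Their lectin-like heads bind the mannose chains of neighbouring cells, which clumps the cells into flocs that settle out of the medium. BY4741 derives from the laboratory strain S288C, which does not flocculate and carries a nonsense mutation in FLO8, an activator of flocculin transcription. FLO1, FLO5 and FLO9 encode close relatives of one another, and FLO10 a more distant one with a part in adhesion and filamentous growth. All 4 genes lie near chromosome ends, where transcription is often silenced.

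A self-self log2 ratio compares the 2 dyes for one RNA. It cannot show how much transcript was present, and intensities were not used here, so a low or absent flocculin transcript could not be measured directly. What the table does hold is the form of each value. A feature read as a few units of signal in each channel gives a ratio of small whole numbers, such as 2 to 3, and a feature with no usable signal can be missing. A value is called a whole-number value here if it lay within 0.00005 of the log2 ratio of 2 whole numbers, neither above 10. That such values come from weak signal is an assumption that was not tested. The lists of abundant genes and of genes not expected below were written with earlier results of these data known, so they cannot test it. Which dye formed the numerator is not known here. Higher and lower therefore refer only to the deposited ratio, after the median of all features on that array was subtracted.

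The flocculin genes did not share one pattern. FLO9 had whole-number or missing values at 6 of 8 measurements, all on arrays 1 to 3. FLO1, FLO5 and FLO10 had 1, 0 and 1. Most FLO1 values equalled ratios of larger whole numbers, but only by a limit of 30 chosen after the values were seen. FLO5 lay near the array median with a small spread between arrays, FLO10 lay below the median on every array, and FLO1 lay above it on 3 of 4. Of the 32 possible flocculin values, 1 was missing and 7 were whole-number values, together 25.0%. Over the other 349 annotated genes 347 of 2864 values, or 12.1%, were missing or whole-number values. FLO9 alone gave 6 of the 8, so at this limit the higher share rested on FLO9. With the limit at 30, 7 of the 14 flocculin values so counted were those of FLO1 and 6 those of FLO9.

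**Figure D1:**
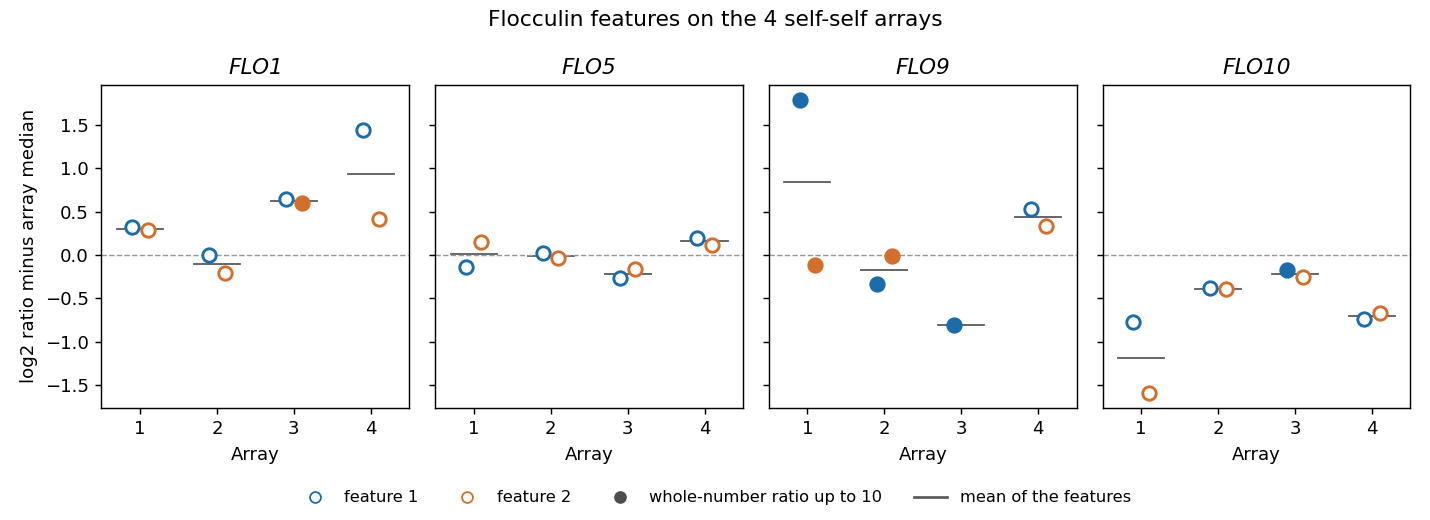
The log2 ratio minus the array median (vertical axis) is plotted for each of the 4 flocculin genes on arrays 1 to 4, with feature 1 in blue, feature 2 in orange, and a bar at their mean. Filled points are whole-number values up to 10. FLO9 has 5 of them, no point for feature 2 on array 3 where the value was missing, and the widest scatter, while FLO5 stays close to 0.

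FLO9 encodes a flocculin very close to Flo1. Its first feature read 1.74 on array 1, -0.58 on array 2, -1.0 on array 3 and 0.29 on array 4, as deposited. The first 3 of these equal the ratios 10 to 3, 2 to 3 and 1 to 2. Its second feature read -0.17, -0.26 and 0.092 on arrays 1, 2 and 4 and was missing on array 3. The values on arrays 1 and 2 equal 8 to 9 and 5 to 6. On array 4 neither feature matched any such ratio up to 50. Thus FLO9 was measured away from small whole numbers on array 4 alone, where its 2 features lay 0.54 and 0.33 above the array median. At least 5 whole-number values out of 8 were found in only 4 of the 346 other genes with 2 features, or 1.16%, namely ECM23, PLC1, SPR2 and SSK22.

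FLO1, the best-studied dominant flocculin, had many matches only at a limit above 10. Its first feature read 0.27, -0.25, 0.46 and 1.21 on arrays 1 to 4 as deposited, and its second read 0.23, -0.46, 0.42 and 0.18. Only the 0.42 on array 3, a ratio of 4 to 3, was a whole-number value by the limit of 10. With the limit raised to 30, which was chosen after the values were seen, 7 of the 8 matched. These 7 were 16 to 19, 11 to 8 and 30 to 13 for feature 1, and 27 to 23, 8 to 11, 4 to 3 and 26 to 23 for feature 2. Counted at the 7 of FLO1 itself, 7 of the 346 other genes, or 2.02%, had at least 7 values that matched up to 30. They were DAL5, ECM13, ECM23, ECM30, GSC2, PGS1 and SPS100.

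FLO5, the third of the close relatives, had values of another kind. As deposited its first feature read -0.19, -0.23, -0.45 and -0.042 on arrays 1 to 4, and its second read 0.099, -0.28, -0.35 and -0.13. None of the 8 was missing and 0 matched with the limit at 30. This was common on the array, since 155 of the 346 other genes, or 44.8%, also had 8 values with no match. The probe sequences were not used here, so whether FLO1, FLO5 and FLO9 features bind each other's transcripts was not tested. Their values nonetheless differed in form, with 1, 0 and 5 whole-number values up to 10.

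FLO10 gave -0.83, -0.63, -0.36 and -0.98 for its first feature as deposited, and -1.65, -0.64, -0.44 and -0.91 for its second. The -0.36 on array 3 equals 7 to 9 and was its only match up to 30. All 8 values lay below their array's median, by 0.17 to 0.77 for feature 1 and by 0.25 to 1.59 for feature 2. The same held for 67 of the 272 genes with 8 values, or 24.6%, so a consistent side of the median did not set FLO10 apart.

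The form of the values also varied by array. On arrays 1, 2, 3 and 4, 2, 2, 4 and 0 of the 8 flocculin features were missing or whole-number values. Among the 716 other annotated features the shares were 8.52%, 17.2%, 15.5% and 7.26%. Array 4, where FLO9 had no whole-number value, was thus lowest in both. Array 1 had nearly as low a share among the other features, at 8.52%, yet both FLO9 features gave whole-number values there.

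Lists of other genes give shares to set beside these, though no transcript level was measured. Among 15 abundant transcripts of growing cells, such as the glycolytic genes TDH2 and PGK1, 0 of 176 values were missing and 1, or 0.568%, was a whole-number value. That value was of ACT1, which had more features than the other 14 genes, with 2 each, and so weighed more in the share. With the limit at 30 the matches came to 2, or 1.14%. Among 11 genes not expected in growing cells of mating type a, most of them sporulation genes, 8 of 88 values were missing and 13, or 14.8%, were whole-number values up to 10. Up to 30, 33 of these 88 matched, or 37.5%. Over all other annotated genes 190 of 2864 values, or 6.63%, matched up to 10, and 430, or 15.01%, up to 30. FLO9, at 5 of 8 by either limit, lay above the list of genes not expected. FLO1 had 1 of 8 up to 10, or 12.5%, the smallest share above 0 that 8 values can give. Exactly 1 missing or whole-number value up to 10 was found in 50 of the 346 other genes, or 14.5%. This count therefore does not place FLO1 beside any list. At 7 of 8 up to 30, the limit chosen after the values were seen, FLO1 lay above the 37.5% of the list of genes not expected. FLO5, at 0 of 8, lay beside the abundant list. The same was found in 155 of the 346 other genes with 2 features, or 44.8%. In the list of genes not expected, SMK1 also had 0 of 8 missing or whole-number values up to 10. FLO10 had 1 of 8 by either limit, or 12.5%. Up to 10 this is the same count as in FLO1. Up to 30 it lay well under the 37.5% of the list of genes not expected. Of the 346 other genes, 59, or 17.1%, also had 8 values with 1 match up to 30. These lists were written with earlier results of these data known, and with 8 values per gene the shares are descriptions.

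**Figure D2:**
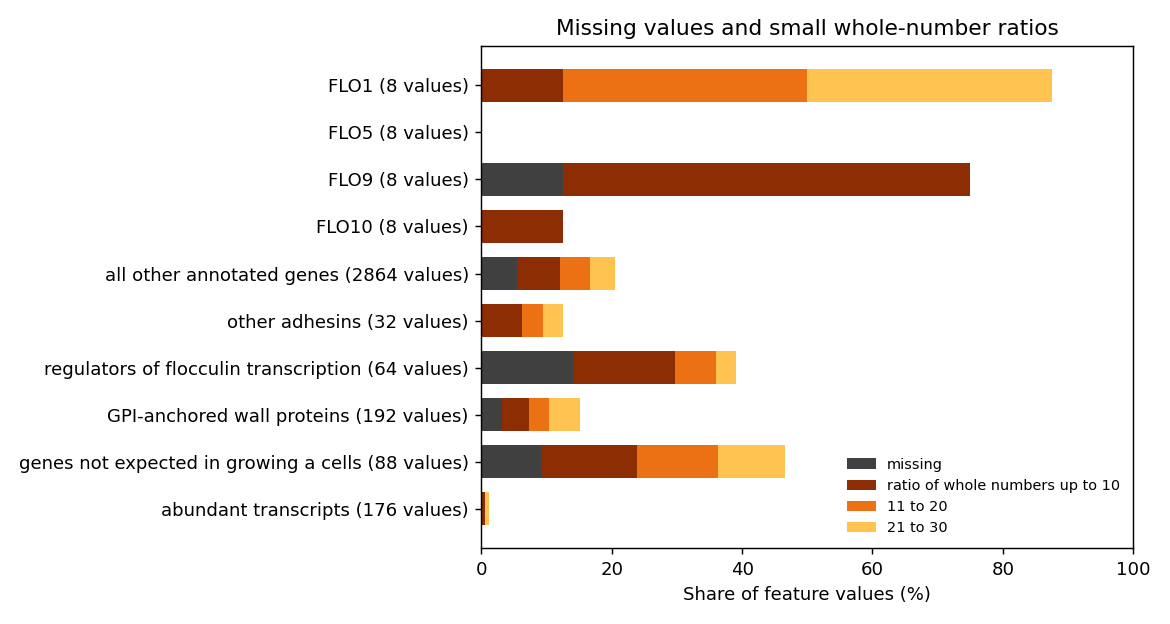
Stacked bars give the share of feature values (percent, horizontal axis) that were missing or that equalled the ratio of 2 whole numbers up to 10, of 11 to 20 or of 21 to 30, for each flocculin gene and for gene lists. FLO9 reaches 75.0% with missing values and the limit of 10, FLO1 87.5% only with the limit of 30, FLO5 has no bar, and the abundant list stays at 1.14%.

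The first test asked whether the log2 ratio of a flocculin gene departed from the array median, so the centred values were used. Features of a gene were averaged on each array, and limma's moderated test of the mean against 0 was fitted over all 345 genes with values on at least 3 arrays. None of the 4 flocculin genes passed an adjusted p of 0.05, by Benjamini-Hochberg over all genes, whereas 86 of 345 genes, or 24.9%, did. Of these, 37, or 10.7%, were higher and 49, or 14.2%, lower. With only 4 genes, a count of 0 cannot be told apart from the 24.9% over all genes. At an unadjusted p of 0.05, FLO10 alone of the 4 passed, beside 143 genes, or 41.4%, over all.

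FLO10 lay at -1.18, -0.39, -0.21 and -0.70 on arrays 1 to 4 relative to the array median. It was lower on all 4 arrays, as were 86 of the 327 genes with values on every array, or 26.3%. Its mean was -0.62 ± 0.425 (SD, n = 4), a 1.54-fold departure, with a 95% interval of -1.12 to -0.12 and an adjusted p of 0.0763 in limma. On the values as deposited, with no centring, its mean was -0.81 and it passed at an adjusted p of 0.0278 in limma, the lowest over the alternatives, which reached 0.183. Under that setting 112 of 345 genes, or 32.5%, passed, 91 of them lower, or 26.4%, because the array medians themselves lay at -0.058, -0.25, -0.19 and -0.24.

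FLO1 lay at 0.31, -0.11, 0.63 and 0.93 on arrays 1 to 4. It was higher on 3 arrays and slightly lower on array 2. The mean of 0.44 ± 0.445 (SD, n = 4) had a 95% interval of -0.079 to 0.96, and limma gave an adjusted p of 0.168. Without array 2 the mean was 0.62 with an adjusted p of 0.0962 in limma, and without array 4 it was 0.28 with 0.336. Leaving out either array thus moved its size, in opposite directions. Over all alternatives the adjusted p ran from 0.0962 to 0.369.

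FLO9 lay at 0.84, -0.18, -0.81 and 0.44, on both sides of the median, the -0.81 of array 3 resting on a single feature. Its mean of 0.072 ± 0.722 (SD, n = 4) had a 95% interval of -0.75 to 0.89, and an adjusted p of 0.882 in limma. Its sign turned with the setting, to -0.11 as deposited, -0.18 without array 1 and -0.049 without array 4, and the mean was 0.37 without array 3.

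FLO5 lay at 0.010, -0.0044, -0.21 and 0.16 on the 4 arrays. The mean of -0.013 ± 0.153 (SD, n = 4) had the narrowest 95% interval of the 4 genes, -0.24 to 0.22, with an adjusted p of 0.923 in limma. The absolute mean of FLO5 was larger than that of 2.05% of the other genes, and that of FLO10 larger than 79.2%. FLO5 therefore gave a ratio close to the array median with a small spread, whereas the near-zero mean of FLO9 came from values that lay far apart.

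**Figure D3:**
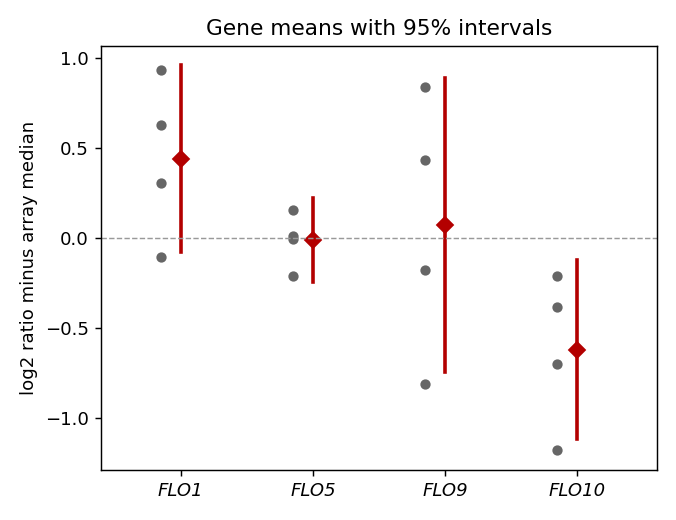
For each flocculin gene, grey points give the mean of its 2 features on each of the 4 arrays as log2 ratio minus the array median (vertical axis), and the red diamond and line give the mean with its 95% interval from limma. The interval of FLO10, -1.12 to -0.12, lies below 0 before adjustment over genes, and FLO5 has the shortest interval.

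The second comparison was of the 2 features of a gene with each other. For FLO9, feature 1 minus feature 2 was 1.91 on array 1, -0.32 on array 2 and 0.20 on array 4. On array 1 this was the difference between 10 to 3 and 8 to 9, so the 2 FLO9 features read on opposite sides of the median. For FLO1 the differences were 0.037, 0.21, 0.044 and 1.03, small on arrays 1 to 3 and large on array 4, where feature 1 read 30 to 13. For FLO10 they were 0.82, 0.016, 0.081 and -0.072, large on array 1 alone and there with no whole-number value in either feature. For FLO5 they were -0.29, 0.054, -0.10 and 0.087.

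Of the 15 flocculin pairs, 2 differed by more than 1 log2 unit, or 13.3%, against 60 of 1269 pairs of other genes, or 4.73%. The median absolute difference was 0.10 over the flocculin pairs and 0.088 over the others. The wide pairs were 1 of FLO9 and 1 of FLO1, and the difference in these shares was not tested. Averaged over arrays, the absolute difference was 0.81 for FLO9, 0.33 for FLO1, 0.25 for FLO10 and 0.13 for FLO5. These exceeded the values of 92.5%, 78.3%, 73.0% and 59.1% of other genes, whose median was 0.11. Feature 1 of FLO1 read above feature 2 on all 4 arrays, though by only 0.037 and 0.044 on arrays 1 and 3. In the other flocculins the sign varied. How many other genes kept the same sign on every array was not counted. In limma on the signed differences of 319 genes, 0 passed an adjusted p of 0.05, or 0%, and 15, or 4.7%, passed an unadjusted one. The adjusted p was 0.791 for FLO1, FLO9 and FLO10 and 0.842 for FLO5.

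The third comparison was of the spread between arrays. The SD was 0.722 for FLO9, 0.445 for FLO1, 0.425 for FLO10 and 0.153 for FLO5 (n = 4 arrays each). These were larger than the SD of 82.1%, 71.3%, 70.7% and 26.7% of the 341 other tested genes, whose median was 0.235. Genes were then taken by how many of their 8 values were missing or whole-number values up to 10. The 208 other genes with 0 such values had a median SD of 0.173 and a median duplicate difference of 0.081. FLO5, which belongs with them, had 0.153 and 0.13. The 50 other genes with 1 such value had medians of 0.351 and 0.19, against 0.445 and 0.33 in FLO1 and 0.425 and 0.25 in FLO10. There were 7 other genes with 6 to 8 such values, 4 of them tested, with a median SD of 1.10 and a median duplicate difference of 0.60, against 0.722 and 0.81 in FLO9. The flocculins thus had the spread of other genes with the same number of such values, within wide ranges. The 10th and 90th percentiles of SD were 0.149 and 1.34 for genes with 1 such value, and 0.0666 and 0.385 for genes with 0.

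**Figure D4:**
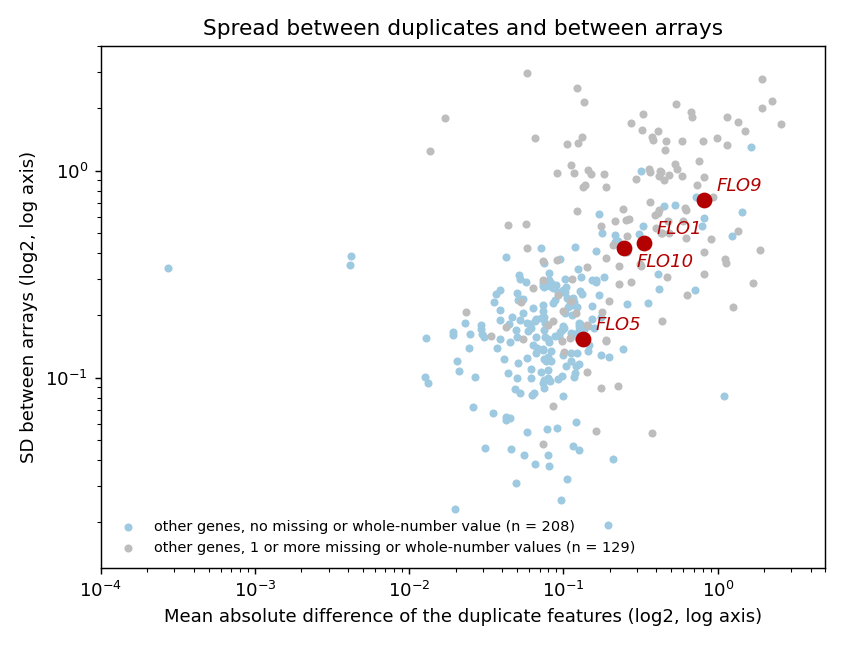
Each point is a gene with 2 features, placed by the mean absolute difference between its duplicates (horizontal, log2 units on a log axis) and its SD between arrays (vertical, log2 units on a log axis). Blue points are the 208 other genes with no missing or whole-number value, grey points those with at least 1, and the flocculins are in red. FLO5 lies among the blue points, and FLO9 lies farthest to the upper right of the 4.

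The genes whose 4 array values were most like those of a flocculin were found by the root mean square difference over arrays. For FLO5 the nearest were IPT1, at 0.11, TIP1, at 0.12, and YGP1, at 0.13. TIP1 encodes a cell wall mannoprotein, YGP1 a secreted glycoprotein and IPT1 an enzyme of sphingolipid synthesis. For FLO1 they were CIS3, a cell wall protein of the PIR family, at 0.20, YET1 at 0.23 and RER2, a cis-prenyltransferase of dolichol synthesis, at 0.25. For FLO10 they were SKM1, a PAK-family kinase, at 0.18 over 3 arrays, VTH1 at 0.19 and ALG12, a mannosyltransferase of N-glycan assembly, at 0.21. For FLO9 the nearest genes were farther off, ATG32, a mitophagy receptor, at 0.39, ROM1, an exchange factor of Rho1, at 0.43 over 3 arrays, and RTS3 at 0.45. Between flocculins the distance was 0.54 for FLO5 and FLO9, 0.59 for FLO1 and FLO5, and 0.76 for FLO5 and FLO10. It was 0.81 for FLO1 and FLO9, and 1.19 and 1.2 for FLO10 against FLO1 and FLO9. These are all pairs, whereas the nearest genes were picked for the smallest distances. Setting one beside the other therefore cannot show whether the flocculins were less alike. With 341 other genes to choose from and 4 arrays, some genes lie close to any pattern, and these distances are a description.

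The genes that act on flocculin transcription were sparsely read on these arrays. Of 34 listed regulators 8 were measured, and FLO8 and the adhesin gene FLO11 were not analysed here. Of their 64 values 19 were missing or whole-number values, or 29.7%, above the 25.0% of the flocculins. CYC8 and TUP1 encode the subunits of a corepressor that acts on FLO1. CYC8 was higher, at 1.19 ± 0.252, with an adjusted p of 0.0207 in limma, and TUP1 lower, at -1.66 ± 0.962 (SD, n = 4), with 0.0492. The TUP1 call did not hold with arrays scaled to a common spread or quantile normalized, with robust empirical Bayes or with genes on at least 2 arrays tested. CYC8 had 5 of 8 values that were missing or whole-number values and TUP1 had 3, all missing. STE12, an activator of filamentous growth genes, varied most, with a mean of 0.072 ± 0.969 (SD, n = 4). In total 1 of the 8 was higher and 1 lower, near the 10.7% and 14.2% of all genes. Their median was 0.024, near the -0.046 over all tested genes other than the flocculins. As deposited 1 was higher and 3 lower, with STE11 and STE20 added.

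Other adhesins of the wall surface had 2 whole-number values of 32, or 6.25%, close to the 6.63% of all other annotated genes, and 0 missing. Of 4 measured, AGA2, the binding subunit of a-agglutinin, was higher, at 0.71 ± 0.123. FIG2, a mating adhesin, was higher at 0.37 ± 0.0570 (SD, n = 4), though it did not pass as deposited. SAG1, alpha-agglutinin, was lower at -0.33 ± 0.106 (SD, n = 4), though it did not pass with robust empirical Bayes. AGA1, the anchoring subunit, varied more than any flocculin, at -0.28 ± 2.01 (SD, n = 4), with a mean duplicate difference of 1.92. Of 24 other GPI-anchored wall proteins, 7 were higher and 0 lower, beside 10.7% and 14.2% of all genes. As deposited 5 were higher and 0 lower, without EGT2 and UTR2. CCW14 led those that passed, at 1.03 ± 0.195 (SD, n = 4), and missing or whole-number values made up 7.29% of 192. Calls of this kind ended with 3 arrays, as 0, 0, 1 and 0 genes passed over all genes without arrays 1, 2, 3 and 4.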

How the data were processed

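The authors deposited a log2 ratio of the 2 channels for each feature on each array. Details of scanning, background correction, filters and normalization were not given in the sources used here. Precision is limited by the 4 arrays, which held 830, 809, 818 and 840 values. All 724 features with 1 annotated gene matched the R64 gene table by Entrez identifier, which was used for names only. Several genes were named for 10 features and none for 162. Each array was centred on its median over all features, and duplicates were averaged per gene. Genes measured on 3 or 4 arrays were tested with limma 3.58.1 in R 4.3.3 (lmFit on an intercept, eBayes, two-sided, Benjamini-Hochberg over all genes). Signed differences between duplicates were tested in the same way. All other comparisons are descriptions. The steps were tested on simulated data.

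The members, the lists and the definition of a whole-number value were chosen with earlier results of these data known. Named genes were the 4 members, for each the 3 genes of smallest root mean square difference, and in each list the genes that passed, the one of largest absolute mean and the one of largest SD. Not all of these are printed. TDH2 and PGK1 (as examples), ACT1, SMK1, STE11, STE20, and the genes that shared the whole-number pattern of FLO9 or FLO1 were named after their values were seen. No sequence is printed, since no table of probe, promoter or protein sequences was used here. Descriptions and figures used pandas 2.3.3 and matplotlib 3.10.9 under Python 3.11.15.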

Additional observations from a re-analysis of the deposited data

How the results depend on the processing

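On the values as deposited FLO10 passed, with a mean of -0.81, which made 1 of the 4 flocculin genes, and FLO9 turned to -0.11. Under the other alternatives 0 flocculin genes passed the test of the mean. Leaving out each array in turn gave means of 0.28 to 0.62 for FLO1, -0.069 to 0.055 for FLO5, -0.18 to 0.37 for FLO9 and -0.76 to -0.43 for FLO10, and 0 to 1 genes passing over all genes. Feature 2 of FLO5 on its own had a mean of 0.019. Without array 1 the duplicate difference of FLO5 turned from -0.063 to 0.013, and over these fits it ran from -0.11 to 0.013. The duplicate test called 0 genes under every alternative run. With missing values alone counted, the flocculin share fell to 3.13%, beside 5.48% of other genes. With limits of 5, 20 and 30 it was 12.5%, 34.4% and 43.8%, beside 9.08%, 16.7% and 20.5%. The limit of 30 was added after seeing the data. Without whole-number values FLO9 had a value on array 4 alone and was not tested. The cause of these changes was not tested. No paired analysis was possible because there is 1 group.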
